A study of Gallus gallus with 8 samples.

Results

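Accessible chromatin of primary chicken fibroblasts was compared with that of red blood cells from adult hens (aRBC), using every peak of the ATAC-seq list of each cell type. The fibroblast list held 17681 peaks and the adult red cell list 11395, together 29076 of the 53397 peaks in the 4 lists of the series. A peak was called shared where it overlapped a peak of the other list by at least 1 bp and unshared otherwise. This divided the peaks into 5435 shared fibroblast peaks, 5320 shared adult peaks, 12246 fibroblast peaks without an adult peak and 6075 adult peaks without a fibroblast peak. The other lists of the series come from HD3, a chicken erythroblast cell line, and from red blood cells of embryonic day 10 (eRBC), and they enter below only as a further readout on these peaks.

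In ATAC-seq the Tn5 transposase inserts sequencing adapters where DNA is free of nucleosomes, and a peak marks a stretch with more insertions than its surroundings. Such stretches are mostly promoters, enhancers and binding sites of insulator proteins. Promoters of broadly used genes tend to be open in most cell types, whereas enhancers differ between lineages. Fibroblasts are connective tissue cells that divide in culture. Avian red blood cells keep their nucleus, and as they mature their chromatin is compacted with the help of the linker histone H5 and most genes fall silent. The chicken genome is split into a few large chromosomes and many small, gene-dense ones, called microchromosomes, and hens carry 1 Z and 1 W sex chromosome.

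Each cell type is represented by 2 wild-type samples but by 1 list, so no value below has a replicate error and no difference between the cell types could be tested. How the samples were combined is not given in the sources used here, and the read depth behind the lists is unknown. Peak names begin with Fb1 in the fibroblast list and with aRBC2 in the adult list, and what the digit stands for is not stated. If it is a replicate number, each list, and every count below, may rest on 1 sample of its cell type. The names of the fibroblast, adult and eRBC lists also carry the word CLEANED, and those of the HD3 list do not. Whether the HD3 list was filtered like the others is not stated, which limits every comparison of HD3 with eRBC below. The fibroblasts were grown in medium with bovine and chicken serum, and the labels give neither their sex nor the age of the donor. The adult cells came from hens of 28 to 38 weeks, and 1 of their samples had a lane run on another sequencing instrument. Peak names carry running numbers with gaps. They reach 18950 in the fibroblast list and 15972 in the adult list, so more of the adult numbers are missing. The HD3 numbers reach 19711 for 11763 peaks and the eRBC numbers 14888 for 12558 peaks. The HD3 list thus lacks more of its numbers than the eRBC list, although its names do not carry the word CLEANED. All positions are those of the deposited lists, whose build the submitters' processing notes name as GRCg6a. The gene table at hand is of another assembly, GRCg7b, so peaks were not assigned to genes, and the labelled cell types were not checked against their marker genes. Intervals are 95% Wilson intervals for shares and 95% order-statistic intervals for medians. They cover counting error over peaks only, and neighbouring peaks are not independent.

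Of the fibroblast peaks, 30.7% (30.1% to 31.4%) met an adult peak, and of the adult peaks 46.7% (45.8% to 47.6%) met a fibroblast peak. The higher share on the adult side goes with its shorter list. Most overlaps joined 1 peak of each list (5094 of 5478 pairs), so the order of the 2 shares follows the list lengths. With both lists at the 11395 strongest peaks the shares were 37.4% and 37.0%. Among peaks with a −log10 q of at least 10 (5918 fibroblast and 8019 adult peaks) the order turned, with 42.7% of fibroblast and 31.3% of adult peaks overlapped. Leaving out chromosome Z gave 32.0% and 46.1%, leaving out chromosome 27 gave 30.5% and 46.5%, and leaving out chromosome 33 gave 30.3% and 46.2%. Without all 3 chromosomes the shares were 31.4% and 45.2%.

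The overlaps were rarely marginal. The 5478 overlapping pairs included 5094 in which 1 fibroblast peak met 1 adult peak. The shorter peak lay wholly inside the longer in 3640 pairs (66.4%), and only 80 pairs (1.46%) overlapped by 50 bp or less. The summits of a pair lay a median of 29 bp apart, with quartiles of 7 and 67 bp, and 67.6% of pairs had summits within 50 bp. On the other side of the threshold, 31 unshared fibroblast peaks (0.253%) and 28 unshared adult peaks (0.461%) ended less than 50 bp from a peak of the other list.

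Unshared adult peaks lay closer to fibroblast peaks than the reverse. The nearest fibroblast peak was a median of 10.4 kb away from an unshared adult peak, and 49.0% had one within 10 kb. For unshared fibroblast peaks the nearest adult peak was a median of 40.0 kb away, and 26.3% had one within 10 kb. The fibroblast list is the longer one and so offers more peaks to be near to. Without chromosomes Z, 27 and 33 the medians were 11.3 kb and 52.5 kb.

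Shared sites were wider than unshared sites in both cell types. The median width was 175 bp (171 to 179) for shared fibroblast peaks, and 132 bp (130 to 133) for fibroblast peaks without an adult peak. It was 250 bp (246 to 254) for shared adult peaks, against 164 bp (162 to 167) for adult peaks without a fibroblast peak. A wider peak has more chance to touch another. With sharing called on 200 bp around each summit instead, the overlapped shares were 29.1% of fibroblast and 45.0% of adult peaks. The deposited widths of the classes drawn in this way had medians of 173 bp (shared) and 133 bp (unshared) in fibroblasts and 246 bp and 168 bp in adult cells. Shared peaks made up 30.7% of the fibroblast peaks and 1193 kb of their covered sequence, against 1865 kb for the unshared ones. In the adult list the shared peaks, fewer in number, covered 1534 kb and the unshared ones 1210 kb.

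Within the 5094 one-to-one pairs the adult peak was the wider in 72.5% (71.2% to 73.7%), with median widths of 246 bp in adult cells and 175 bp in fibroblasts. This share was 56.6% (51.5% to 61.6%) on chromosome Z, 56.5% (49.3% to 63.4%) on chromosome 27 and 60.4% (54.5% to 65.9%) on chromosome 33, and 75.4% (74.04% to 76.6%) on the rest of the genome. Peak width depends on depth and on the caller, so widths of one list are not set against the other as a difference between cells. The widths of partners ranked alike with a Spearman coefficient of 0.47 over the 5094 pairs, given as a description since pairs are not replicates.

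**Figure D1:**
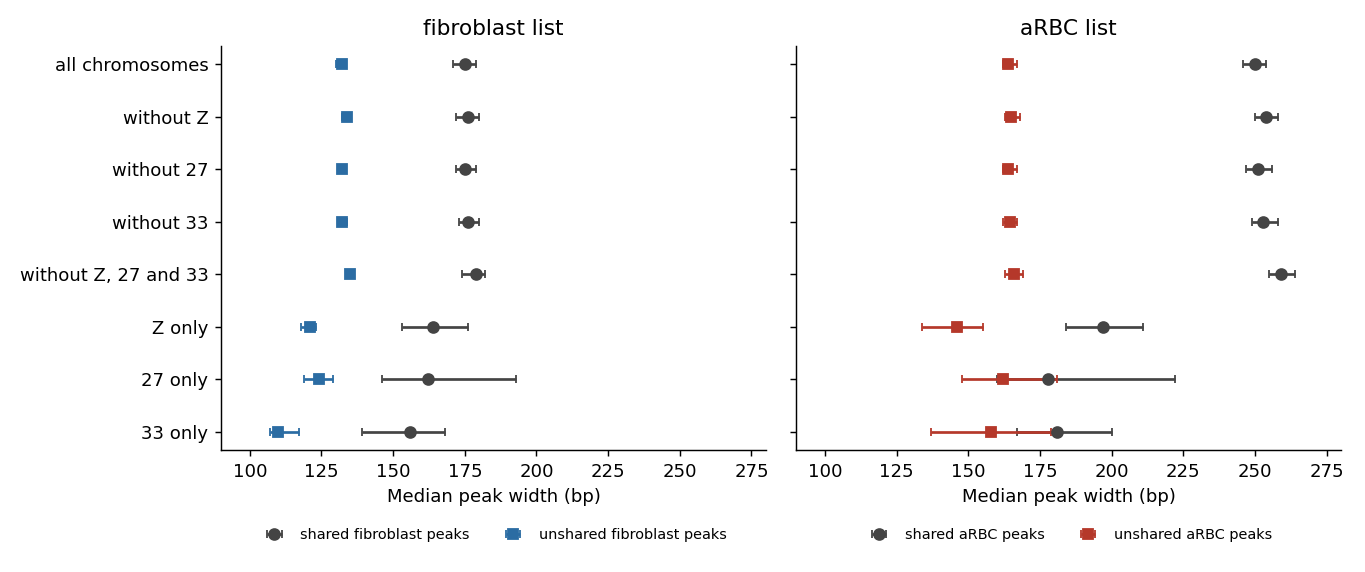
Median peak width in bp (x axis) of shared and unshared peaks in the fibroblast list (left) and the adult red cell list (right), over all chromosomes, with single chromosomes left out, and for chromosomes Z, 27 and 33 alone; bars are 95% order-statistic intervals. Shared peaks are wider in all rows, and in the adult list the intervals of shared and unshared peaks overlap on chromosomes 27 and 33.

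Leaving out chromosome Z, 27 or 33 moved none of the 4 class medians by more than 4 bp, and leaving out all 3 moved them to 179 and 135 bp in fibroblasts and 259 and 166 bp in adult cells. On these chromosomes, each taken whole, peaks were narrower, but on Z this did not hold along the chromosome. The fibroblast median was 117 bp beyond 73 Mb, 130 bp from 27 to 28 Mb and 149 bp over the rest of Z. The whole fibroblast list stood at 141 bp. In the adult list the same stretches gave 130, 184 and 206 bp, against 199 bp for the whole list. The class medians below are for whole chromosomes. Shared fibroblast peaks had medians of 164 bp on Z, 162 bp on 27 and 156 bp on 33, and the unshared had 121, 124 and 110 bp. Shared adult peaks had medians of 197, 178 and 181 bp in the same order. The unshared adult peaks had 146, 162 and 158 bp, so that on 27 and 33 the intervals of the adult classes overlapped.

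Shared sites also stood higher in their own lists. Column 7 of the lists was read as the authors' fold enrichment at the summit, which was used only to rank peaks within a list (percentile 100 is the highest). Shared fibroblast peaks had a median percentile of 65.3 (64.0 to 66.7) and unshared ones 44.4 (43.7 to 45.2). In the adult list the medians were 65.6 (64.4 to 66.8) and 39.2 (38.0 to 40.3). The percentiles of partners had a Spearman coefficient of 0.46 over the one-to-one pairs. Of these pairs, 1084 had a fibroblast peak at or above percentile 90, 972 had an adult peak there, and 426 had both.

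The overlapped share climbed steeply at the top of each list. In the highest decile by fold enrichment, 1002 of 1140 adult peaks (87.9%) met a fibroblast peak and 1135 of 1769 fibroblast peaks (64.2%) met an adult peak. Toward the bottom the shares passed through a minimum, of 28.9% in the adult list (the second decile) and 20.1% in the fibroblast list (the third decile). They then turned up to 34.7% and 25.1% in the lowest decile. Chromosome Z held 37.9% of the fibroblast peaks in that lowest decile and 5.48% of those in the highest. Without chromosomes Z, 27 and 33 the lowest fibroblast decile kept 948 peaks, of which 37.1% were overlapped, and the highest kept 1511, of which 64.1% were.

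Ranking by width gave the same order without the upturn in the lowest decile. Of the narrowest decile, 15.96% of fibroblast and 21.6% of adult peaks were overlapped, and of the widest decile 64.5% and 72.1%. At the top of the adult list the overlapped share was thus higher by fold enrichment (87.9%) than by width.

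**Figure D2:**
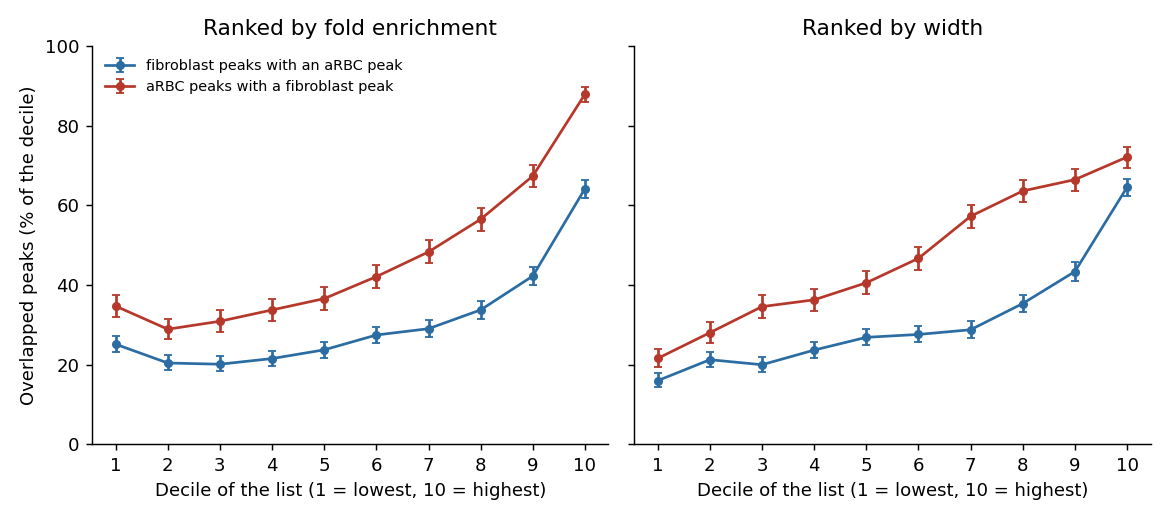
Share of peaks that met a peak of the other list (y axis, percent) by decile of the list, ranked by fold enrichment (left) or by width (right), in the fibroblast and adult red cell lists; bars are 95% Wilson intervals. Both curves are highest in the top decile, at 64.2% and 87.9% by fold enrichment, and the lowest decile by fold enrichment lies above the next.

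Few of the strongest peaks were unshared. Among the 100 highest, 92 fibroblast peaks and 94 adult peaks had a partner. Among the 1000 highest the numbers were 727 (72.7%, 69.9% to 75.4%) and 895 (89.5%, 87.5% to 91.3%). In the highest 1% of the fibroblast list, 155 of 177 peaks were shared, and their adult partners had a median percentile of 85.7. In the highest 1% of the adult list, 106 of 114 were shared, and their fibroblast partners had a median percentile of 95.7. Of the 8 unshared adult peaks in that group 2 lay on chromosomes Z, 27 or 33, and of the 22 unshared fibroblast peaks 5 did.

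The pairs that ranked best in both lists lay on 4 chromosomes. First was a site on chromosome 1 from 172115556 to 172115727 in adult cells, the highest peak of the adult list with a fold enrichment of 81.5 and rank 3 in fibroblasts with 46.8. Its 2 peaks begin at the same base and are 172 and 168 bp wide. It also met an HD3 peak and no eRBC peak. A site on chromosome 2 from 65121368 to 65121556 followed, with rank 2 in adult cells and 6 in fibroblasts. The next, on chromosome W from 1689453 to 1689606, held rank 1 in fibroblasts with a fold enrichment of 54.4 and rank 5 in adult cells. Chromosome 31 carried the last of the 5, from 3132671 to 3132957 (ranks 6 and 4) and from 3956136 to 3956248 (ranks 7 and 11, adult cells first). No site on chromosomes Z, 27 or 33 was among the 5.

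Single unshared fibroblast sites reached high ranks as well. The highest lay on chromosome 27 from 274553 to 274673, at rank 19 with a fold enrichment of 27.8. Chromosome 2 from 49591576 to 49591758 followed at rank 28, then chromosome 1 from 77115156 to 77115306 at rank 29. The next stood at the start of chromosome 5, from 6964 to 7072 (rank 54), and on chromosome 30 from 1716663 to 1717166 (rank 63). None of these 5 met a peak of either other list. Further along chromosome 1, a fibroblast peak from 77123171 to 77123345 at percentile 99.3 met an adult peak at percentile 11.6 only.

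Among adult sites without a fibroblast peak, the highest lay on chromosome 2 from 93694809 to 93695092, at rank 11 with a fold enrichment of 41.0, and it met an eRBC peak. Chromosome Z from 27126001 to 27126199 held rank 17, chromosome W from 4737119 to 4737311 rank 28 and chromosome 4 from 237344 to 237487 rank 57, and none of these met a peak in another list. The last of the 5, on chromosome 16 from 1166630 to 1166733 (rank 64), met an eRBC peak.

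A few peaks of the highest 1% had a partner in the lower part of the other list. The fibroblast peak on chromosome 33 from 3441702 to 3442187, at rank 72, met an adult peak at percentile 4.74. On chromosome 30 a fibroblast peak of 866 bp from 1757186 to 1758051, at rank 25, met an adult peak at percentile 44.1. In the reverse direction, adult peaks on chromosome 2 from 129064244 to 129064771 (rank 44) and from 85646667 to 85646924 (rank 100) met fibroblast peaks at percentiles 24.4 and 28.3. Another, on chromosome 3 from 12725208 to 12725752 (rank 73), met one at percentile 38.9. All 3 of these adult peaks also met a peak in HD3 and in eRBC. In all, 6 of 158 pairs in the highest 1% of the fibroblast list and 4 of 109 in that of the adult list had a partner below percentile 50.

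The unshared classes differed in how often they met the 2 erythroid lists, which were not used to call sharing. For background, 28.0% of all fibroblast peaks met an HD3 peak and 29.2% an eRBC peak, and 43.5% and 62.6% of all adult peaks did. Adult peaks without a fibroblast peak met an eRBC peak in 52.5% (51.3% to 53.8%) and an HD3 peak in 28.6% (27.5% to 29.7%). Fibroblast peaks without an adult peak did so in 9.42% (8.92% to 9.95%) and 14.1% (13.5% to 14.7%). The unshared adult peaks were thus met more often in eRBC than in HD3. For the unshared fibroblast peaks the order was the reverse. The sharing rule bears on this order and on the low fibroblast shares, since it took out the fibroblast peaks that met an adult peak. Of those taken out, 73.8% met an eRBC peak and 59.4% an HD3 peak. The order of the unshared fibroblast peaks did not hold on chromosomes Z, 27 and 33. Of the unshared fibroblast peaks, 4.05% met an HD3 peak and 8.30% an eRBC peak on Z, 1.25% and 3.99% did on 33, and 2.20% met each on 27. In the lowest decile by fold enrichment, of whose unshared peaks 46.5% lay on Z, it was also the opposite (3.55% and 8.23%). Without the 3 chromosomes the shares were 16.5% in HD3 and 10.04% in eRBC. Of the unshared fibroblast peaks 10148 (82.9%) met neither list, and of the unshared adult peaks 2746 (45.2%). Over the whole lists these shares were 65.1% of fibroblast and 35.6% of adult peaks, so part of this contrast lay between the whole lists.

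Unshared adult peaks met both erythroid lists more often where they were strong. Of these peaks, 25% of those in the lowest decile by fold enrichment met an eRBC peak, against 78.3% of the 138 in the highest decile. The corresponding HD3 shares were 5.51% and 65.9%, so that the HD3 share lay closer to the eRBC share in the highest decile. The share of all adult peaks that met a fibroblast peak was also higher there, at 87.9% against 34.7% in the lowest decile. Erythroid shares of the shared adult peaks by decile are not given here. The rise is therefore not shown to be particular to the unshared class. Of the unshared fibroblast peaks in the highest decile, 634 in number, 20.5% met an eRBC peak and 32.3% an HD3 peak, and 65.8% met neither.

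Shared peaks were mostly open in the erythroid lists too. Of the shared fibroblast peaks, 3168 (58.3%) met a peak in both HD3 and eRBC, 842 (15.5%) in eRBC alone, 63 (1.16%) in HD3 alone and 1362 (25.1%) in neither. Chromosomes Z, 27 and 33, each taken whole, differed here from the rest of the genome. The share of shared fibroblast peaks met in neither list was 37.9% on Z, 62.3% on 27 and 60.9% on 33. Without these 3 chromosomes it was 20.1%. Without the 100 kb windows that held at least 10 peaks of either list it was 10.9%. Shared fibroblast peaks met an eRBC peak in 39.6% on chromosome 31, 45.6% on 16 and 47.1% on W, against 61.6% on Z. For the unshared adult peaks, leaving out Z, 27 and 33 raised the share met in eRBC from 52.5% to 55.4%. It was 27.2% on Z, 33.7% on 27 and 29.8% on 33. Within Z it was 11.5% beyond 73 Mb, 7.35% from 27 to 28 Mb and 45.1% over the rest. Chromosomes 31 (14.7%), W (26.1%), 30 (28.3%) and 16 (31.3%) were low as well, and the remaining chromosomes stood higher.

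**Figure D3:**
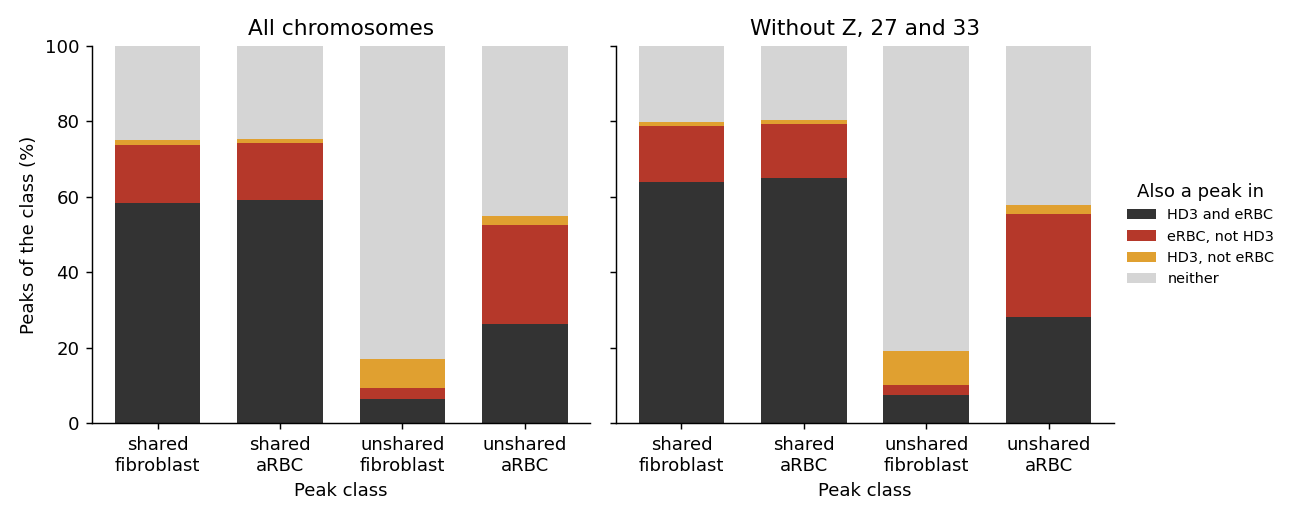
Share of each peak class (y axis, percent) that also met a peak in HD3, in eRBC, in both or in neither, for all chromosomes (left) and without Z, 27 and 33 (right). Unshared fibroblast peaks met neither in 82.9% and unshared adult peaks in 45.2%, and most shared peaks met both.

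Counts by chromosome ran from an excess of fibroblast peaks on the large chromosomes to an excess of adult peaks on many small ones. On chromosomes 1 to 5 there were 8383 fibroblast and 4500 adult peaks, a ratio of 1.86. The ratio was 1.51 on chromosomes 6 to 10 and 1.08 on chromosomes 11 to 33 (4977 and 4596 peaks). Without 27 and 33 the last group came to 1.01. Z had the highest ratio, 2.87 (1916 and 668 peaks), and W the lowest, 0.46 (27 and 59). Of the 32 chromosomes with at least 50 peaks in each list, 23 had more fibroblast peaks and 9 more adult peaks, against a ratio of the whole lists that favours fibroblasts. Of these 9, chromosome 25 had the lowest ratio, with 149 fibroblast and 227 adult peaks.

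The spread of the unshared classes over the chromosomes is set beside that of their whole lists. Unshared peaks are 69.3% of the fibroblast and 53.3% of the adult list, so some likeness is built in. Chromosomes 1 to 5 held 50.3% of the fibroblast peaks without an adult peak, against 47.4% of all fibroblast peaks, and 38.4% of the adult peaks without a fibroblast peak, against 39.5% of all adult peaks. Chromosomes 11 to 33 held 23.7% of the unshared and 28.1% of all fibroblast peaks, and 42.0% and 40.3% in the adult list. Z held 12.5% of the unshared and 10.8% of all fibroblast peaks, and 4.77% of the unshared and 5.86% of all adult peaks.

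From the large to the small chromosome groups the overlapped share rose in the fibroblast list and fell slightly in the adult list. As most overlaps are one-to-one, the ratio of the 2 shares follows the ratio of the peak counts given above. Part of this movement therefore restates those counts. For fibroblast peaks it was 26.6% on chromosomes 1 to 5, 31.0% on 6 to 10 and 41.6% on 11 to 33. For adult peaks it was 48.2%, 45.7% and 44.4% on the same groups, and 41.8% on 11 to 33 without 27 and 33. The adult intervals on 6 to 10 (43.3% to 48.2%) and on all of 11 to 33 (43.0% to 45.9%) overlapped. Over the 32 chromosomes the fibroblast share had a median of 35.0% and the adult share 44.6%. The Spearman coefficient between the 2 shares was −0.18 over these chromosomes, which share the same lists and differ in peak density.

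Among chromosomes with at least 50 peaks in each list, and away from Z, 27 and 33, fibroblast peaks were overlapped most often on chromosome 30 (83 of 131, 63.4%), chromosome 28 (71 of 125, 56.8%) and chromosome 16 (68 of 125, 54.4%). Chromosome 32, with 25 fibroblast peaks, had 19 overlapped (76%). Fibroblast peaks were overlapped least on chromosomes 3 (24.2%), 7 (24.4%) and 2 (24.4%). Adult peaks were overlapped most often on chromosomes 14 (196 of 347, 56.5%), 8 (204 of 364, 56.0%) and 5 (281 of 569, 49.4%). Chromosomes 26 (45 of 148, 30.4%), 25 (76 of 227, 33.5%) and 22 (54 of 158, 34.2%) were at the other end.

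**Figure D4:**
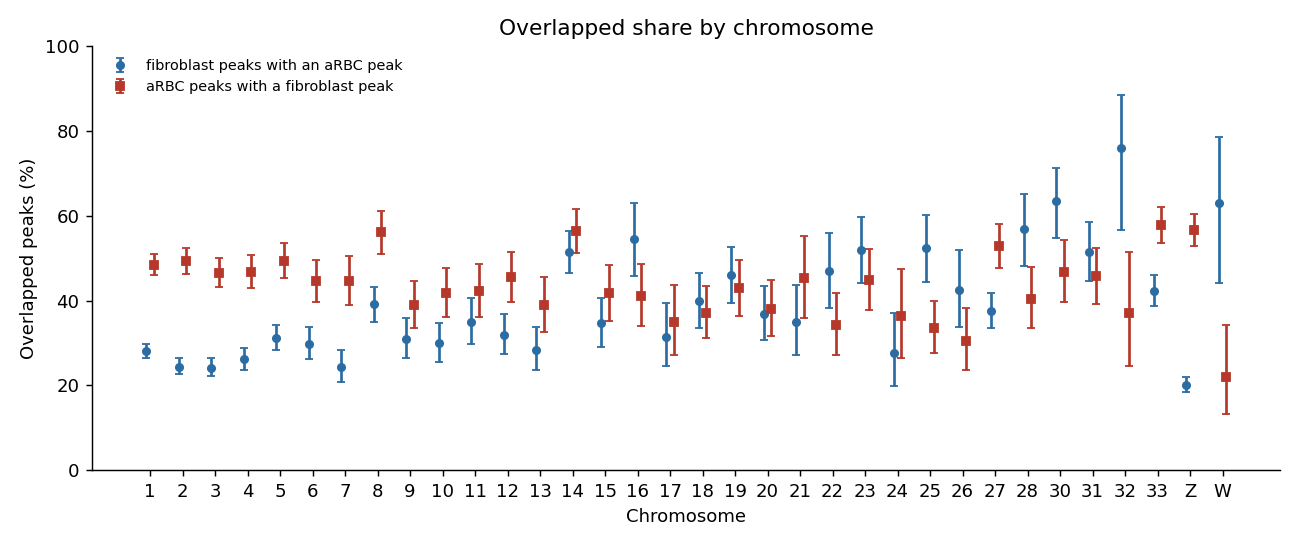
Share of fibroblast peaks (circles) and adult red cell peaks (squares) that met a peak of the other list (y axis, percent), by chromosome; bars are 95% Wilson intervals. Adult shares lie above fibroblast shares on the large chromosomes and on Z, 27 and 33, and below them on several small chromosomes such as 25 and 28 and on W.

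Chromosome Z had the lowest overlapped share of all chromosomes in the fibroblast list and, after chromosome 33, the highest in the adult list. Only 385 of its 1916 fibroblast peaks (20.1%, 18.4% to 22.0%) met an adult peak, and 378 of its 668 adult peaks (56.6%, 52.8% to 60.3%) met a fibroblast peak. Its unshared fibroblast peaks, taken over all of Z, had a median percentile of 17.3, while its shared ones stood at 54.3. The low unshared median was not found along the whole chromosome. It was 6.46 beyond 73 Mb, 25.6 from 27 to 28 Mb and 46.8 over the rest of Z, against 44.4 in the whole class. Unshared adult peaks on Z had a median percentile of 38.0, close to the 39.2 of the whole class. This value also mixed stretches, with 12.7 beyond 73 Mb, 45.6 from 27 to 28 Mb and 48.1 over the rest.

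Much of the fibroblast surplus on Z lay at its distal end, where the published chicken sequence is known for long arrays of amplified genes. Beyond 73 Mb there were 1046 fibroblast peaks, of which 133 (12.7%, 10.8% to 14.9%) were shared, at a median percentile of 7.23. The adult list had 210 peaks there, of which 132 (62.9%, 56.1% to 69.1%) were shared, at a median percentile of 19.0. Of the 913 unshared fibroblast peaks in this stretch, 46 (5.04%) met an eRBC peak and 4 (0.438%) an HD3 peak. The fullest 1 Mb bin, from 76 to 77 Mb, held 187 fibroblast peaks and 31 adult peaks, and 26 of the adult peaks were shared.

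A second stretch of Z stood out in the adult list. Between 27 and 28 Mb the adult list had 85 peaks, of which 17 (20%, 12.9% to 29.7%) were shared, and the fibroblast list 43, of which 18 were shared. This is the fullest 1 Mb bin of Z in adult cells, with 12.7% of their peaks on the chromosome. Of its 68 unshared adult peaks, 5 met an eRBC peak and 1 an HD3 peak. The eRBC list had 20 peaks in the bin and the HD3 list 8. The chicken Z is known for the MHM region, which is methylated in males and transcribed in hens; the files do not place it in this build, so its relation to the bin was not tested. Over the rest of Z, 234 of 827 fibroblast peaks (28.3%) and 229 of 373 adult peaks (61.4%) were shared. Fibroblast peaks thus outnumbered adult peaks there too, as they did on chromosomes 1 to 5 (8383 and 4500 peaks). On those chromosomes 26.6% of fibroblast and 48.2% of adult peaks were shared.

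Chromosomes 27 and 33 were rich in unshared fibroblast peaks, with 39.4 and 51.5 per Mb up to the last peak of any list. Chromosome 30 came next with 26.4. Unshared adult peaks came to 21.3 and 27.6 per Mb on 27 and 33. Chromosomes 30 (50.6), 32 (40.0), 25 (38.1) and 16 (34.8) had more of these. Chromosome 27 had 509 fibroblast peaks, of which 191 (37.5%) were shared, and 365 adult peaks, of which 193 (52.9%) were. Its first 2 Mb held most of the fibroblast peaks, 219 in the first and 160 in the second, and there 70 and 43 were shared. The adult list had 88 peaks in the first Mb, of which 73 were shared. In the third Mb the surplus was adult, with 51 unshared adult and 14 unshared fibroblast peaks. Those 75 adult peaks of the third Mb stood low in their list, at a median percentile of 13.4.

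Chromosome 33 had 695 fibroblast peaks, of which 294 (42.3%) were shared, and 510 adult peaks, of which 295 (57.8%) were. Fibroblast peaks without a partner filled its first 3 Mb, with 112, 122 and 97 per Mb, against 18, 32 and 33 unshared adult peaks. From 6 to 7 Mb the adult list had the surplus, with 61 unshared adult and 13 unshared fibroblast peaks, and 23 of those adult peaks met an eRBC peak. Unshared fibroblast peaks met an HD3 peak in 7 of 318 cases on chromosome 27 and 5 of 401 on chromosome 33.

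Many peaks had another of their own class nearby. Of the unshared fibroblast peaks, 44.5% had another unshared fibroblast peak within 10 kb, and of the unshared adult peaks 51.2% had another unshared adult peak. For the shared peaks the values were 42.3% in fibroblasts and 39.8% in adult cells. Over all peaks, with any peak of the list as the neighbour, 52.4% of fibroblast and 61.7% of adult peaks had one. The unshared fibroblast value was thus close to that of the shared peaks, which are fewer, and below that of the whole list. The fibroblast value rested in part on the 3 chromosomes. It was 68.5% on Z, 84.3% on 27 and 85.3% on 33, and without them it was 37.9%, while the adult value was 51.3%. The shared peaks then had 40.04% and 37.2%. Once peaks under a −log10 q of 10 were dropped, the shares were 24.1% and 48.5%. That cut kept 5918 of 17681 fibroblast peaks and 8019 of 11395 adult peaks, and a thinner list offers fewer neighbours. The values therefore do not separate strength from list length. In lists of equal length the shares were 31.4% and 54.3%.

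Peaks were then chained where neighbours of the same unshared class lay within 10 kb. Chains of at least 5 peaks held 1599 unshared fibroblast peaks (13.1%) in 202 chains and 729 unshared adult peaks (12%) in 103 chains. Shared peaks chained among themselves were in such chains in 14.0% of fibroblast and 13.6% of adult cases, and all peaks of a list in 19.7% and 20.8%. Of the fibroblast chains 75 lay on Z, 16 on 27, 25 on 33 and 86 elsewhere. The adult chains had 4 on Z, 4 on 27, 6 on 33 and 89 elsewhere. Without the 3 chromosomes such chains held 5.87% of unshared fibroblast and 10.7% of unshared adult peaks, which put the adult class above the fibroblast class. The shared peaks stood above both, at 13.9% in fibroblasts and 13.3% in adult cells. Chains of at least 10 peaks numbered 43 in fibroblasts, of which 12 lay outside the 3 chromosomes, and 14 in adult cells, of which 8 did.

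**Figure D5:**
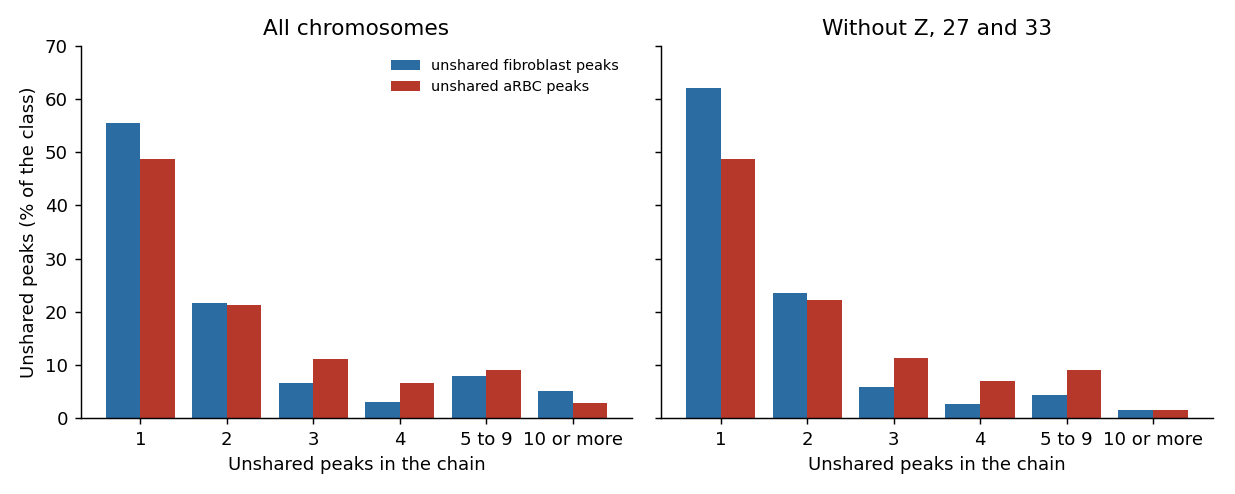
Share of the unshared fibroblast and unshared adult red cell peaks (y axis, percent of the class) by the number of peaks in their chain, over all chromosomes (left) and without Z, 27 and 33 (right). Single peaks make up 55.5% and 48.8% of the classes on the left and 62.1% and 48.7% on the right, and the fibroblast bar for 10 or more peaks shrinks from 5.03% to 1.55%.

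The largest fibroblast chain, on chromosome 27 from 654219 to 730427, held 32 unshared peaks in 76.2 kb. It contained 14 shared fibroblast peaks and 14 adult peaks as well, and no peak of HD3 or eRBC. The next chains lay in the distal part of Z, with 22 unshared peaks from 78663986 to 78722874 and 19 from 75206671 to 75278771, at median percentiles of 9.86 and 12.6. Each of these enclosed 2 adult peaks.

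The largest adult chain was in the 27 to 28 Mb bin of Z, from 27325417 to 27397005, with 36 unshared peaks in 71.6 kb at a median percentile of 30.6. It enclosed 2 shared adult peaks, 3 fibroblast peaks and no peak of HD3 or eRBC. The next had 13 unshared peaks each. One lay on chromosome 22 from 3985513 to 4015884, with no fibroblast peak inside, 6 peaks of eRBC and 2 of HD3. Another lay on chromosome 27 from 2165140 to 2197504, with 14 fibroblast, 13 eRBC and 8 HD3 peaks inside. The last, on chromosome 27 from 2221772 to 2257002, stood at a median percentile of 0.882 and enclosed 1 fibroblast peak and 4 eRBC peaks.

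Shared and unshared peaks were not mixed evenly along the chromosomes. After a shared fibroblast peak the next fibroblast peak was shared in 47.7%, and after an unshared one in 23.2%. In the adult list the values were 54.4% and 40.0%. Among neighbours within 10 kb they were 57.3% and 22.7% in fibroblasts and 58.0% and 32.5% in adult cells. Without chromosomes Z, 27 and 33 the close neighbours gave 61.8% and 23.6% in fibroblasts and 55.7% and 32.0% in adult cells.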

How the data were processed

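ATAC-seq libraries were made, per the labels' protocols, from nuclei of 150000 cells with 30 min of Tn5 and 10 PCR cycles. Bowtie2 2.3.5, SAMtools 1.9, MACS2 2.1.2 and the build GRCg6a are named in the submitters' processing notes, with no role given. The deposited lists are in narrowPeak layout without headers. By this layout, the deposited fold enrichment is a ratio to the caller's local background. The −log10 p and −log10 q of the deposited lists were computed by the caller. A display score was deposited too and not used. Read filters, offsets for Tn5 and the handling of the 2 samples per cell type are not given in the sources used here.

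Starts were counted from 1. Overlaps of at least 1 bp defined sharing, and percentiles ranked fold enrichment within the whole list, also where chromosomes or dense windows were left out. In the stricter lists and the lists of equal length, percentiles were ranked anew within the shortened list. Single peaks were chosen by rank within their class, chains by their number of peaks, and chromosomes by their overlapped share. Dense windows are 100 kb windows with at least 10 peaks of either list. On simulated pairs of lists with 10000 peaks each, planted sharing of 40% was found as 40%. The counts of overlapped peaks matched bedtools 2.31.1. Software was matplotlib 3.10.9, SciPy 1.17.1, pandas 2.3.3 and NumPy 2.4.6 under Python 3.11.15. The comparison, its classes and the stretches of Z were chosen with earlier results of these data known. The single bins of 1 Mb were picked after their counts were seen. No sequence is shown, since no genome of this build was used here.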

Additional observations from a re-analysis of the deposited data

How the results depend on the processing

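No paired analysis was possible because there is 1 peak list per cell type. No sample could be left out for the same reason. Of 92 alternative values for 10 results, 51 stayed within the interval of the result and 41 moved outside it; the cause was not tested. Depth is unknown and limits every count.

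Restricting both lists to a −log10 q of 10 or more, the overlapped shares were 42.7% of fibroblast and 31.3% of adult peaks, the median widths of shared peaks 231 and 287 bp, the percentile of shared fibroblast peaks 62.0, the shares of unshared peaks within 10 kb of another 24.1% and 48.5%, and the share of unshared fibroblast peaks on Z 11.9%. In lists of equal length the overlapped shares were 37.4% and 37.0%, the widths 199 and 257 bp, the percentiles 62.4 and 68.2, and the shares within 10 kb 31.4% and 54.3%. With 200 bp around summits the overlapped shares were 29.1% and 45.0%; the deposited widths of shared peaks under this rule, added after the data were examined, were 173 and 246 bp. Requiring 50% of the shorter peak to be covered moved none of the 10 results outside its interval. Ranking by −log10 p put shared fibroblast peaks at percentile 69.2. In the stricter lists and the lists of equal length, percentiles were ranked anew within the shortened list. Those values are not on the scale of the main result.

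Without Z the overlapped fibroblast share was 32.0%. Without 33 the percentile of shared adult peaks was 67.04, and without all 3 chromosomes it was 68.8, the overlapped adult share 45.2% and the width of shared adult peaks 259 bp. The share of unshared fibroblast peaks within 10 kb of another was 41.1% without Z, 43.4% without 27, 43.1% without 33 and 37.9% without all 3. With a distance of 5 kb these shares were 32.1% in fibroblasts and 38.8% in adult cells, and with 20 kb they were 58.4% and 63.0%. Without the 263 dense windows the overlapped shares were 28.5% and 43.9%, and the width of shared adult peaks was 266 bp. Shared peaks stood at percentiles 67.8 and 74.3 of the whole lists, where all kept peaks had medians of 54.3 and 55.8. The shares within 10 kb were 33.6% and 44.9%, and the shares of unshared peaks on Z were 6.37% and 3.57%.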

Other observations

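Peaks near the ends of the chromosomes were counted after the data were examined, taking the farthest peak end over the 4 lists as the end of a chromosome. Within 200 kb of an end lay 448 of the 12246 unshared fibroblast peaks (3.66%), 457 of the 6075 unshared adult peaks (7.52%), 448 of the shared fibroblast peaks (8.24%) and 438 of the shared adult peaks (8.23%). Without chromosomes Z, 27 and 33 the shares were 3.93%, 7.93%, 8.83% and 8.85% in this order. A stretch of 200 kb is a larger part of a small chromosome. Chromosomes 11 to 33 held 23.7% of the unshared fibroblast and 42.0% of the unshared adult peaks. These shares therefore do not separate position from chromosome size.

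Chromosome W, which among chickens only females carry, had peaks in both lists. Of its 27 fibroblast peaks, 17 met 1 of 13 shared adult peaks, and of its 59 adult peaks 46 had no fibroblast partner. The 17 shared fibroblast peaks stood at a median percentile of 98.7 in their list and the 13 shared adult peaks at 83.0 in theirs. The labels do not give the sex of the fibroblasts.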
